A study of Rattus norvegicus with 14 samples.

Results

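Distal intergenic regions are here the differentially methylated candidate regions that the deposited annotation places between genes and more than 10000 bp from the nearest transcription start. They make up 2435 of the 8555 listed regions (28.5%). By comparison they number 424 of 1583 for HFD against control, 556 of 1849 for ELS against control, 526 of 1867 for ELS-HFD against control, 421 of 1653 for ELS-HFD against HFD and 508 of 1603 for ELS-HFD against ELS. Regions of different tables that overlap by at least 1 bp were counted as 1 locus, which leaves 1362 loci. No measured value entered the choice, but a region is listed at all only because the authors' region caller found a difference of at least 2.5 percentage points over at least 10 CpGs.

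The DNA came from the sperm of parental-generation Wistar males (rats) and was read by reduced representation bisulfite sequencing (RRBS), which covers CpG-rich restriction fragments. Of the 14 libraries, 3 came from rats with early-life stress followed by a high-fat diet (ELS-HFD), 4 from rats with early-life stress on standard chow (ELS), 4 from rats on the high-fat diet alone (HFD) and 3 from controls. Early-life stress meant that pups spent 3 h of each day away from the dam, for 16 days beginning on postnatal day 1. All groups went through an elevated plus maze at about postnatal day 57, and the diets diverged at postnatal day 60. The age at sperm collection is not given in the sources used here, and neither are litters, so the libraries may differ by litter as well as by group. Values after ± are SDs over all libraries of the group named.

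Most of the genome between genes is methylated in sperm, while CpG islands and many enhancers stay unmethylated. Methylation far from promoters is read mostly at such regulatory elements and at repeats. Much of it is erased and rewritten in the early embryo, although imprinted regions and some repeats escape that wave.

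Genes with a known germline pattern were looked up among the listed regions. Of 19 genes with maternally methylated control regions, which are unmethylated in sperm, 5 were listed with promoter or first-exon regions (Gnas, Grb10, Igf2r, Kcnq1 and Zrsr1), at levels between 1.48 and 13.0% over 17 regions. Tuba3a, 1 of 11 germline-promoter genes and the only one listed, stood at 3.84%. Promoter regions of any gene had a median level of 2.60%, so low levels at these genes cannot tell sperm from other cells. Whether the listed regions are the control regions themselves was not tested. None of the 6 genes with paternally methylated control regions and none of the 6 blood or epididymis genes was listed, and since the tables hold only regions that differ, their levels are not known here.

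A microRNA gene was the nearest annotated start for 25 of the regions, at 14 loci and 10 genes. MicroRNAs pair with messenger RNAs mainly through their seed, bases 2 to 8 of the mature strand. The mature 5p strands of the genes that recur below are given from RefSeq (GRCr8), with the seed in capitals, to show which of them share a seed. The let-7c and let-7i strands share the seed GAGGUAG, and the strand of miR-672 has a different one, GAGGUUG.
rno-let-7c-5p: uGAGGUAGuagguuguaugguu
rno-let-7i-5p: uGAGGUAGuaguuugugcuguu
rno-miR-672-5p: uGAGGUUGguguacuguguguga
rno-miR-153-5p: gUCAUUUUugugauguugcagcu
rno-miR-129-5p: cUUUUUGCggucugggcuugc

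Distal intergenic regions were more methylated than the other listed regions. Their median level over libraries was 21.3%, against 9.99% in the rest, and 35.3% of them lay below a level of 10%, against 50.03% of the rest. Levels between 20 and 80% were found in 35.4% of the distal intergenic regions and levels over 80% in 15.6%, while 29.9 and 12.1% of all listed regions fell in these classes. Intergenic regions within 10000 bp of a start had a median of 16.3%, regions in introns after the first 24.1% and promoter regions 2.60%. The distal intergenic regions had a median of 10 CpGs and 107 bp, lay at a median distance of 39066 bp, and lay upstream of the nearest start in 58.2% of cases. Just inside the limit of 10000 bp, a region 10013 bp from Slc6a4, the serotonin transporter gene, averaged 5.21 ± 6.40% in HFD and 0.905 ± 0.182% in control libraries. Just outside it, a region 9987 bp from Ggnbp1 averaged 63.0 ± 12.6% in HFD and 72.4 ± 2.57% in control libraries.

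**Figure D1:**
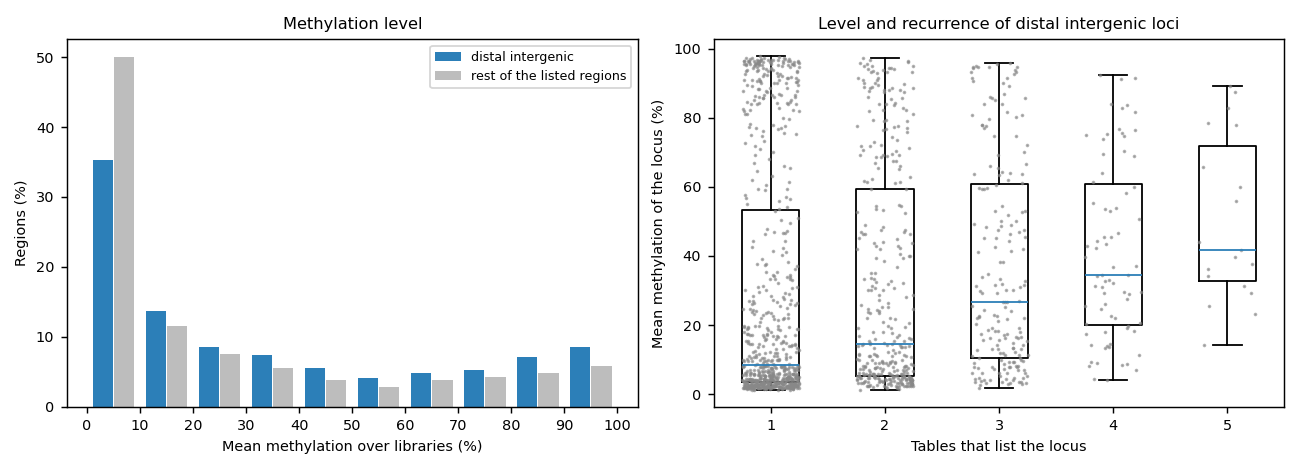
Left, share of regions (y axis, percent) in each 10-point class of mean methylation (x axis, percent) for the distal intergenic regions and the rest of the listed regions. Right, mean methylation of each distal intergenic locus (points, y axis, percent) by the number of tables that list it (x axis), with boxes for the quartiles; the medians were 8.31, 14.4, 26.7, 34.6 and 41.7% for 1 to 5 tables.

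A locus could be listed in several of the 5 tables, which share groups and so are not independent. Of the 1362 loci, 718 were listed in 1 table, 359 in 2, 191 in 3, 75 in 4 and 19 in all 5. The median level was 8.31% in loci listed once and 41.7% in the 19 loci listed in every table, of which 13 had a control mean between 20 and 80% in HFD against control. The loci were scattered: 158 (11.6%) had another within 10000 bp, 18 regions lay on the X chromosome and 10 on unplaced sequences.

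A region is named called where the q-value in the authors' deposited table was under 0.05. Of the distal intergenic regions 12 were called, at 11 loci, and in 11 of the 12 the group named first was the lower one. Of all listed regions 58 were called, and that group was the lower one in 48. The 12 are 0.493% of the distal intergenic regions, against 0.678% of all listed regions, and 2397 distal intergenic regions (98.4%) had a q-value of 1. CpGs within a region count as observations behind the q-value, which therefore mixes variation between CpGs with variation between rats. In a limma fit on the logit scale over all regions of a table, none of the distal intergenic regions had an adjusted p under 0.05 in any comparison, and the lowest adjusted p-values were 0.116 for HFD against control, 0.0952 for ELS against control, 0.103 for ELS-HFD against control, 0.139 for ELS-HFD against HFD and 0.104 for ELS-HFD against ELS. An unadjusted limma p under 0.05 was found in 61, 128, 118, 83 and 130 distal intergenic regions in that order of comparisons (14.4, 23.0, 22.4, 19.7 and 25.6%), while 22.8, 26.9, 27.9, 25.2 and 27.3% of all listed regions had one. For a single region an exact two-sided permutation test over libraries cannot go below p = 0.0571 with 4 against 3 libraries or p = 0.1 with 3 against 3.

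**Figure D2:**
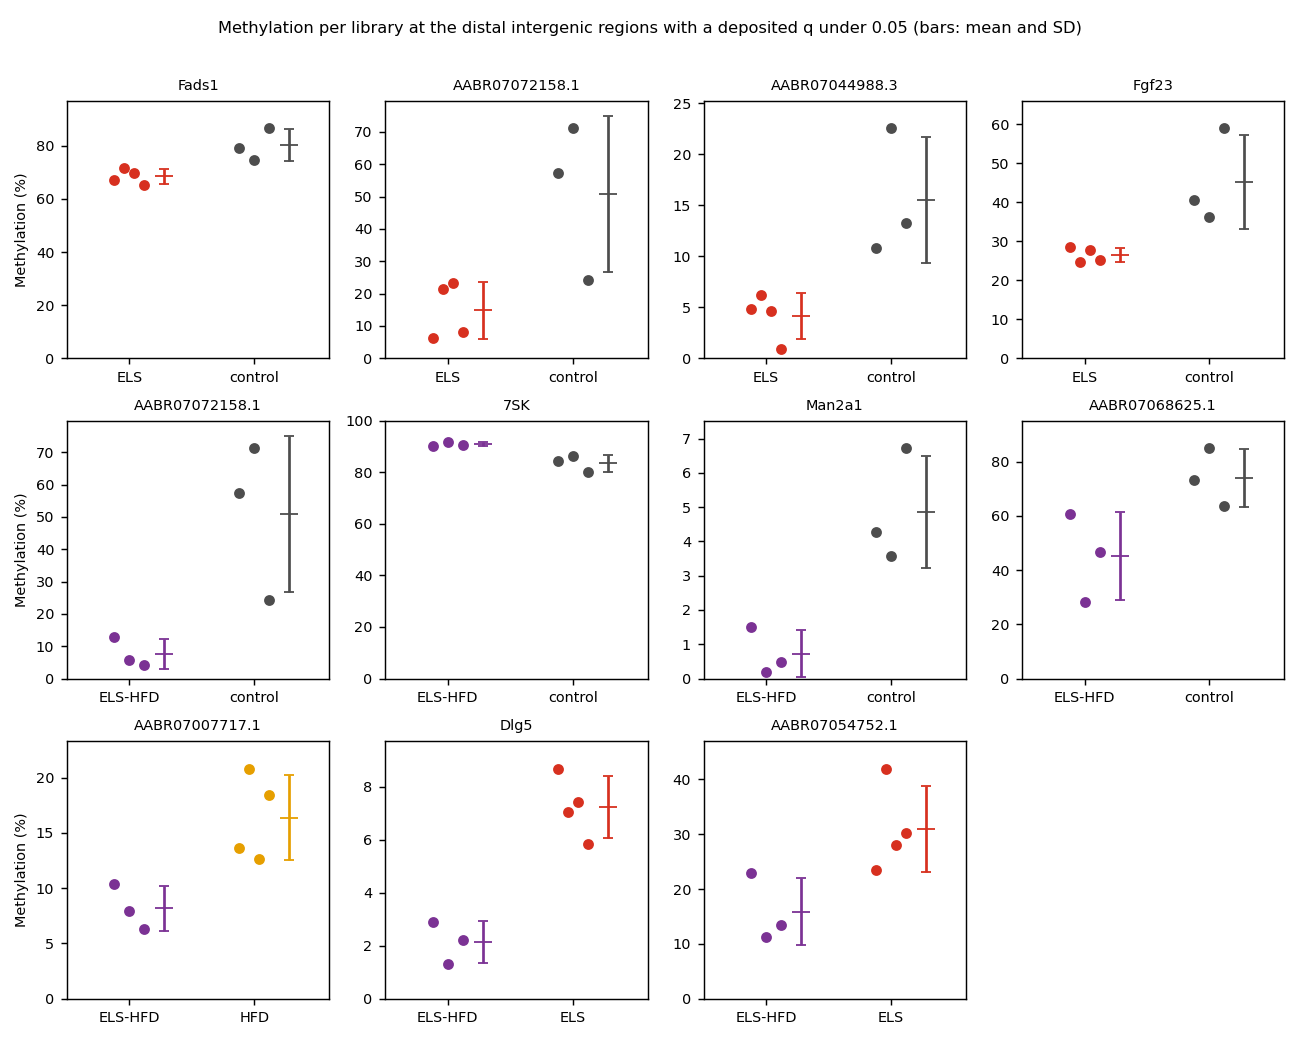
Methylation (y axis, percent, starting at 0) of each library (points) at 11 of the 12 called distal intergenic regions, with the group mean and SD beside them; the panels carry the name of the nearest gene. The libraries of both groups do not overlap in any panel, and only at 7SK is the group on the left the higher one.

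ELS against control gave 4 called distal intergenic regions of 556, all lower in ELS, while 0.919% of all listed regions of this table were called, 0.811% as lower and 0.108% as higher. The first lay 25507 bp upstream of Fads1, the delta-5 desaturase of polyunsaturated fatty acid synthesis (chr1:226208441-226208694, Rnor_6.0, 14 CpGs). Its libraries held 67.3, 71.6, 69.6 and 65.3% in ELS and 79.1, 74.8 and 86.6% in control sperm. Every ELS library lay below every control library, and methylation fell by 11.7 points in ELS (68.5 ± 2.77% against 80.2 ± 5.98%, SD, q = 0.00135). The locus was listed in 3 further comparisons without a call. It averaged 75.3 ± 6.86% in ELS-HFD and 80.4 ± 8.59% in HFD libraries, and over a shorter interval 77.6 ± 6.15% in ELS-HFD and 68.3 ± 3.85% in ELS libraries.

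The region 10502 bp upstream of Fgf23, the bone hormone that lowers blood phosphate, had 27 CpGs (chr4:159611771-159612033). It held 28.4, 24.7, 27.8 and 25.1% in ELS and 40.6, 36.3 and 59.0% in control sperm. The groups did not overlap, but control library 3 stood well above the others. Methylation fell by 18.8 points (q = 4.26e-06), and the difference was -11.9 points without control library 3. In other tables, parts of the same locus averaged 30.3 ± 8.75% in ELS-HFD against 46.2 ± 13.7% in control libraries and 33.4 ± 6.63% in HFD against 48.0 ± 17.0% in control libraries, both with a q-value of 1. Without control library 3 these differences were -7.99 points instead of -15.9 for ELS-HFD against control and -4.87 instead of -14.6 for HFD against control. In ELS-HFD against HFD the means were 30.2 ± 11.2% in ELS-HFD and 34.9 ± 8.19% in HFD libraries, a difference of -4.65 points that was 1.76 points without ELS-HFD library 2.

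The other called regions of this comparison lay near clone-based gene names with no known role. The region 59975 bp from AABR07072158.1 (chr10:70015518-70015619) held 6.34, 21.6, 23.4 and 8.21% in ELS and 57.4, 71.2 and 24.3% in control sperm. Control library 3 was close to the highest ELS libraries, and methylation fell by 36.1 points (q = 0.0341), the largest decrease of any distal intergenic region in this comparison. The region 17310 bp from AABR07044988.3 (chr20:30639914-30640028) held 4.84, 6.18, 4.60 and 0.92% in ELS and 10.8, 22.6 and 13.2% in control sperm. No ELS library reached the lowest control library, and methylation fell by 11.4 points (q = 0.0210).

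ELS-HFD against control also gave 4 called distal intergenic regions, of 526, with 3 lower and 1 higher in ELS-HFD. Among all regions that this table lists, 0.696% were called, 0.589% as lower and 0.107% as higher. The AABR07072158.1 region was called here as well, with 12.9, 5.73 and 4.25% in ELS-HFD libraries. It fell by 43.3 points (q = 7.85e-05), but both calls rest on the same 3 control libraries. The region 22721 bp upstream of Man2a1, a Golgi mannosidase of N-glycan processing (chr9:112270636-112270699), held 1.5, 0.20 and 0.48% in ELS-HFD and 4.27, 3.58 and 6.71% in control sperm. It was nearly unmethylated in ELS-HFD, and it fell by 4.13 points (q = 0.000117). The region 54738 bp from AABR07068625.1 (chr9:112662906-112663198) held 60.6, 28.2 and 46.6% in ELS-HFD and 73.3, 84.8 and 63.7% in control sperm. ELS-HFD library 1 came within a few points of the lowest control library, and methylation fell by 28.8 points (q = 0.0200).

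The 1 called region that rose lay 29671 bp upstream of a copy of 7SK, the small nuclear RNA that holds the elongation factor P-TEFb inactive (chr7:61984384-61984854, 16 CpGs). It held 90.2, 91.9 and 90.7% in ELS-HFD and 84.2, 86.1 and 79.985% in control sperm. The groups did not overlap, and methylation rose by 7.49 points (q = 0.0319).

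ELS-HFD against HFD, which sets separated against unseparated rats on the same diet, had 1 called distal intergenic region of 421, lower in ELS-HFD. Of all listed regions 0.423% were called there, 0.363% as lower and 0.0605% as higher. It lay 90667 bp from AABR07007717.1 (chr2:25655511-25655592, 18 CpGs). Its libraries held 10.3, 7.94 and 6.30% in ELS-HFD and 13.7, 20.8, 12.6 and 18.4% in HFD sperm. The groups did not overlap, and methylation fell by 8.19 points (q = 0.0432).

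ELS-HFD against ELS, which sets the diets against each other in separated rats, had 3 called distal intergenic regions of 508, all lower in ELS-HFD. Of all listed regions 0.686% were called there, 0.624% as lower and 0.0624% as higher. The region 70241 bp upstream of Dlg5, a scaffold protein of cell junctions (chr15:50062-50201, 20 CpGs), held 2.91, 1.30 and 2.22% in ELS-HFD and 8.69, 7.04, 7.44 and 5.85% in ELS sperm. The gap between the groups exceeded the spread within either, and methylation fell by 5.11 points (q = 0.000395). The region 13654 bp from AABR07054752.1 (chr3:168590048-168590287, 28 CpGs) held 22.8, 11.3 and 13.5% in ELS-HFD and 23.4, 42.0, 28.1 and 30.2% in ELS sperm. ELS library 2 was the highest and ELS library 1 was close to ELS-HFD library 1, and methylation fell by 15.04 points (q = 6.86e-06).

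HFD against control gave no called distal intergenic region of 424, while 0.632% of all listed regions were called, 0.379% as lower and 0.253% as higher. In this comparison 61 regions had an unadjusted limma p under 0.05 and 0 an adjusted one. The libraries of HFD and control did not overlap in 76 regions (17.9%), against 22.6% of all listed regions. Among these the largest decreases lay near Tmem132c, Dnah5, AABR07026924.1, LOC689173 and AABR07036413.1. The region 39066 bp upstream of Dnah5, an axonemal dynein heavy chain (chr2:80909447-80909737), held 16.0, 14.1, 16.5 and 15.2% in HFD and 18.1, 31.2 and 34.0% in control sperm. The HFD libraries were close together, and the difference was -12.3 points with a q-value of 1. The region near Tmem132c averaged 25.1 ± 6.28% in HFD and 37.8 ± 6.80% in control libraries. The largest increases without overlap lay near LOC103690041, at 75.5 ± 6.37% in HFD and 62.4 ± 9.41% in control libraries, and then near U6, AABR07033274.1 and Ngfr. Control library 2 weighed on the first, whose difference was 13.1 points and 7.70 without it, and on AABR07033274.1, with 7.79 points and 4.60 without it.

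For the other comparisons the libraries did not overlap in 130 regions of ELS against control (23.4%, against 25.7% of all listed), 173 of ELS-HFD against control (32.9%, against 38.7%), 71 of ELS-HFD against HFD (16.9%, against 23.9%) and 105 of ELS-HFD against ELS (20.7%, against 24.1%). In every comparison the share in distal intergenic regions was below that of all listed regions. The same held for regions in introns after the first. Their share was 17.3% in HFD against control and 22.8, 35.6, 18.9 and 23.3% in the other comparisons in that order. Apart from called regions, the largest differences without overlap in distal intergenic regions had q-values between 0.0599 and 1. In ELS against control they included a decrease near Lyzl1, a lysozyme-like gene (39.5 ± 3.73% in ELS, 53.6 ± 7.91% in control libraries), and near Cnn3, an actin-binding calponin (70.6 ± 8.35% in ELS, 84.7 ± 5.57% in control libraries). The largest increase, 32073 bp from AABR07024757.1, held 54.8, 53.0, 45.3 and 53.3% in ELS and 30.7, 31.5 and 28.7% in control sperm. Both groups were tight there, the difference was 21.3 points, and the q-value was 0.119.

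In ELS-HFD against control, regions near Mrm1, a mitochondrial ribosomal RNA methyltransferase, averaged 52.7 ± 4.02% in ELS-HFD and 73.9 ± 13.6% in control libraries, and near Srsf8, a splicing factor, 37.8 ± 11.3% in ELS-HFD and 57.3 ± 8.11% in control libraries. The higher regions included one near AABR07059193.1 (37.7 ± 2.61% in ELS-HFD, 26.9 ± 3.18% in control libraries, q = 0.0599), one near Plau, the urokinase gene (34.0 ± 7.09% in ELS-HFD, 23.6 ± 2.41% in control libraries), and one near the kinesin gene Kifc3 (52.4 ± 4.69% in ELS-HFD, 43.0 ± 5.15% in control libraries). Single libraries decided part of the size at Mrm1, where the difference was -21.3 points and -13.6 without control library 2, and at Plau, where it was 10.5 points and 6.42 without ELS-HFD library 3. In ELS-HFD against HFD, the Mrm1 region averaged 52.7 ± 4.02% in ELS-HFD and 69.9 ± 7.49% in HFD libraries. A region near the metalloprotease gene Adamts9 averaged 30.7 ± 0.534% in ELS-HFD and 23.4 ± 5.39% in HFD libraries. In ELS-HFD against ELS, a region near Aebp2, a cofactor of the Polycomb complex PRC2, averaged 17.4 ± 0.977% in ELS-HFD and 9.18 ± 4.98% in ELS libraries, and one near Fam243a 83.0 ± 3.34% in ELS-HFD and 70.9 ± 4.14% in ELS libraries.

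The direction of the listed differences varied with the comparison. The first-named group was the lower one in 42.2% of the distal intergenic regions for HFD against control, 53.2% for ELS against control, 71.3% for ELS-HFD against control, 71.3% for ELS-HFD against HFD and 66.1% for ELS-HFD against ELS. Of all listed regions 43.6, 60.9, 70.0, 73.9 and 61.9% were lower in that order. The share also varied with the level. In ELS against control, 43.9% of the distal intergenic regions under a level of 20% were lower in ELS, as were 60.8% of those between 20 and 80% and 65.1% of those over 80%. In ELS-HFD against ELS the order was the opposite, with 78.7% lower under 20%, 57.4% between 20 and 80% and 47.8% over 80%. All listed regions had the same pattern. In the same order of levels their shares were 52.3, 69.7 and 73.0% in ELS against control and 73.9, 51.8 and 36% in ELS-HFD against ELS. In HFD against control, 10 of the 50 regions between 100 and 250 kb from a start were lower in HFD (20%). The shares were 49.6, 47.2 and 41.1% in the nearer distance classes and 31.8% beyond 250 kb. Between 100 and 250 kb the other comparisons had 50.8, 72.1, 74.5 and 66.7% lower, in the order above. Differences of at least 10 points were found in 229 distal intergenic regions (9.40%, against 7.41% of all listed), and 203 of these had a level between 20 and 80%.

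**Figure D3:**
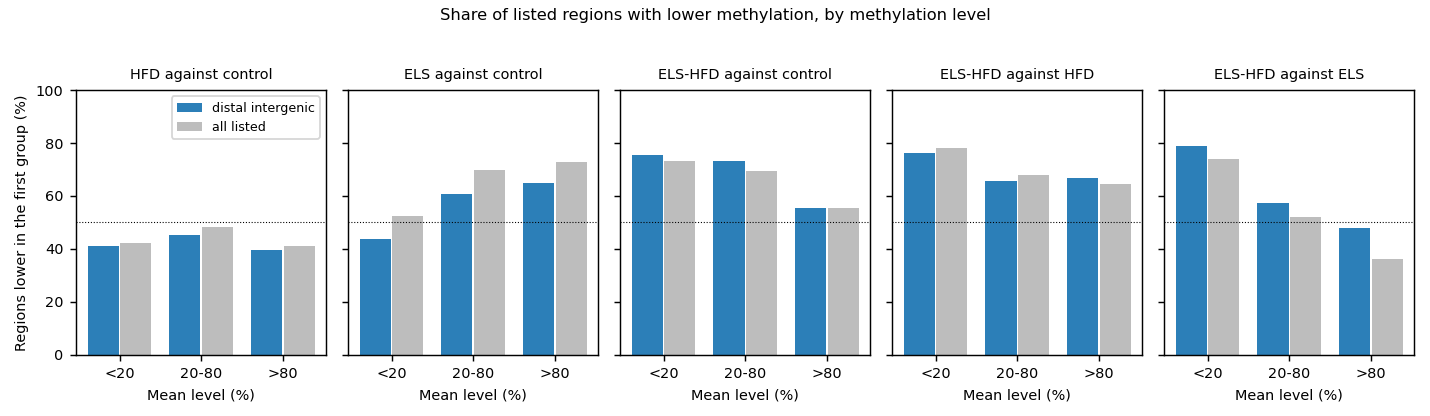
Share of regions (y axis, percent, starting at 0) that were lower in the first-named group of each of the 5 comparisons, by mean methylation of the region (x axis, percent), for distal intergenic and all listed regions. The share fell with the level in ELS-HFD against ELS, with 78.7, 57.4 and 47.8% of the distal intergenic regions, and rose with it in ELS against control, with 43.9, 60.8 and 65.1%. All listed regions moved the same way in both comparisons.

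One library was often the lowest, and these shares moved by a few points without it. ELS-HFD library 2 averaged 32.2% over the 526 regions of ELS-HFD against control, while ELS-HFD libraries 1 and 3 averaged 35.9 and 35.8% and the control libraries 36.8 to 37.8%. It was the lowest of the 6 libraries in 195 of these regions (37.1%), and the lowest of 7 in 147 regions of ELS-HFD against HFD (34.9%) and in 166 of ELS-HFD against ELS (32.7%). Without it the shares of lower regions were 68.6, 68.6 and 63.2%. ELS library 2 was the lowest of 7 in 145 of the 556 regions of ELS against control (26.1%), and the share was 53.2% both with and without it. Libraries are numbered by the order of their columns, and the source of their lower level was not tested.

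**Figure D4:**
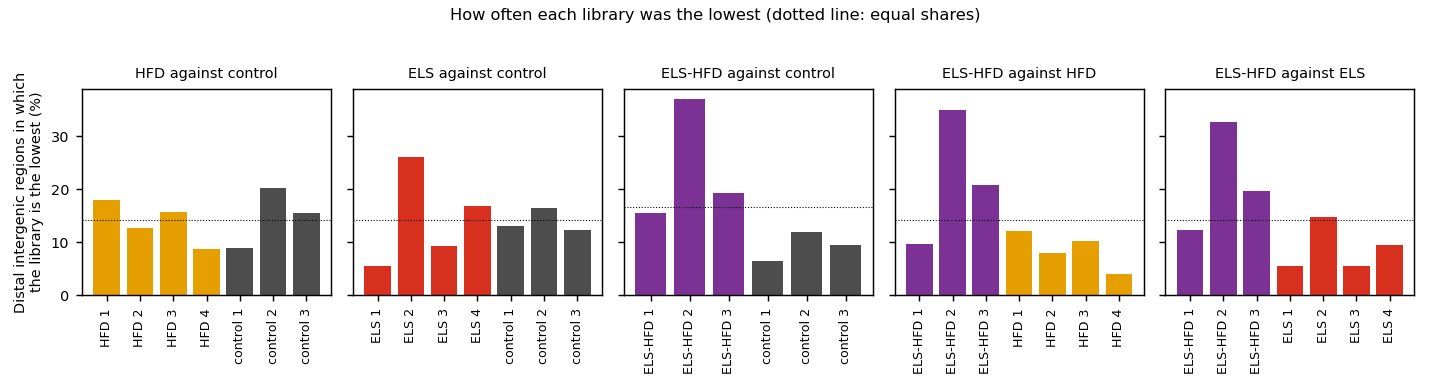
Share of the distal intergenic regions (y axis, percent, starting at 0) in which each library (x axis) had the lowest methylation, in each of the 5 comparisons, with a dotted line at equal shares. ELS-HFD library 2 was the lowest in 37.1, 34.9 and 32.7% of the regions of its comparisons.

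The 19 loci listed in all 5 tables were compared within each table, since the tables give different intervals of a locus. At AABR07068625.1, called in ELS-HFD against control, the means were 45.1 ± 16.3% in ELS-HFD and 73.9 ± 10.6% in control libraries, 55.9 ± 7.96% in ELS and 73.5 ± 11.5% in control libraries, and 65.0 ± 15.1% in HFD and 73.6 ± 11.8% in control libraries. The last difference was -8.64 points, and -1.19 without HFD library 2. Near Xbp1, a transcription factor of the unfolded protein response, the libraries held 63.7, 43.8 and 66.2% in ELS-HFD and 72.3, 72.7 and 71.0% in control sperm. In ELS against control they held 71.4, 63.0, 66.8 and 53.8% in ELS and 73.2, 72.8 and 73.9% in control sperm. The control libraries were close together, and neither comparison overlapped, with q-values of 1. The differences were -14.1 points, and -7.03 without ELS-HFD library 2, and -9.57 points, and -6.26 without ELS library 4. Near Msh6, a mismatch repair gene, methylation averaged 29.9 ± 2.57% in ELS-HFD and 40.5 ± 9.03% in control libraries, a difference of -10.5 points that was -5.73 without control library 3, and libraries of the groups overlapped in every table.

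Ngfr, which encodes the p75 neurotrophin receptor, had a locus 10604 bp upstream that was higher in the first-named group in every table. Its region in ELS-HFD against control (chr10:83418729-83418781) held 35.0, 24.97 and 27.2% in ELS-HFD and 14.4, 17.1 and 11.3% in control sperm. A region of the same locus in HFD against control held 32.4, 23.0, 22.6 and 30.5% in HFD and 20.3, 18.2 and 19.9% in control sperm. Both were without overlap, with differences of 14.8 and 7.62 points and q-values of 1. Near Gja1, the connexin 43 gene, ELS-HFD libraries were low: 27.1, 19.8 and 17.0% in ELS-HFD against 35.4, 32.2, 40.7 and 50.5% in HFD sperm, and over nearly the same interval 24.7, 18.6 and 16.3% in ELS-HFD against 33.7, 35.8, 35.1 and 36.8% in ELS sperm. Neither comparison overlapped, with differences of -18.4 and -15.5 points and q-values of 0.187 and 1. At Piwil1, a PIWI protein of the germline piRNA pathway, the libraries held 94.4, 83.1 and 69.5% in ELS-HFD and 92.8, 90.3 and 92.0% in control sperm. ELS-HFD library 1 lay above the control libraries, and the difference was -9.32 points, and -2.88 without ELS-HFD library 3.

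**Figure D5:**
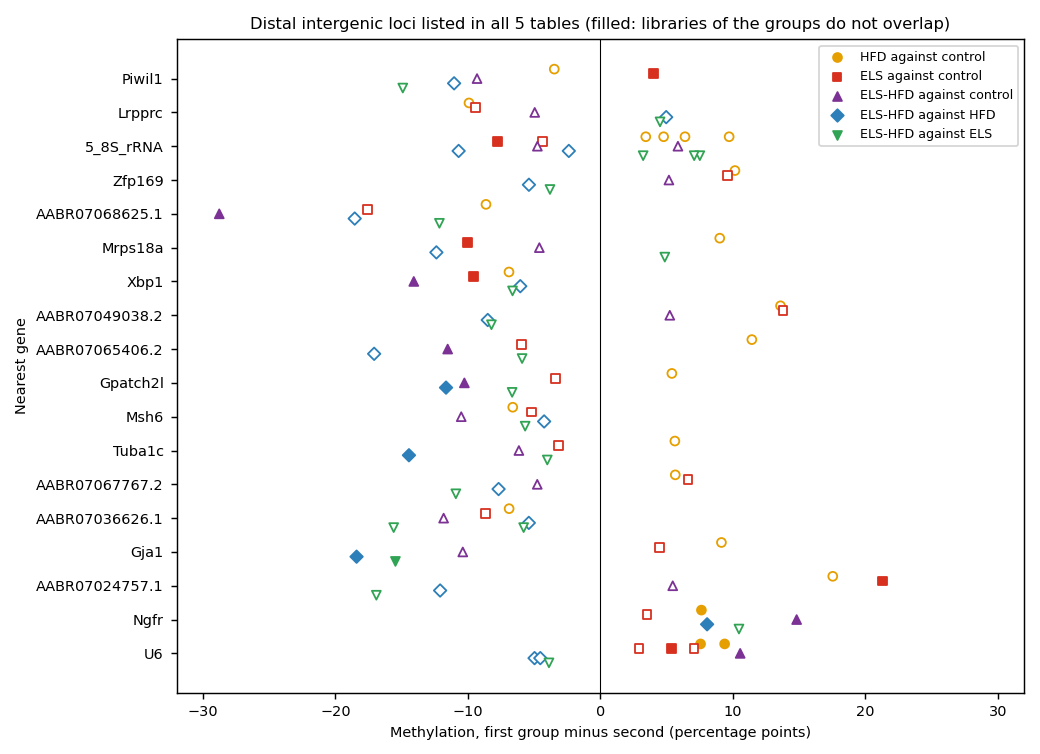
Difference in methylation (x axis, percentage points, first-named group minus the second) of 18 of the 19 distal intergenic loci listed in all 5 tables (y axis, nearest gene), each comparison over its own interval of the locus; filled markers are regions whose groups do not overlap. All differences are below 0 at AABR07068625.1, Xbp1, Msh6 and AABR07036626.1 and above 0 at Ngfr, and the other loci shown have both signs.

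At some loci the libraries of 1 group lay far apart. They spanned more than 50 points within a group in 28 distal intergenic regions at 12 loci (1.15%, against 0.795% of all listed), none of them called. Near Zadh2 (chr18:81018355-81018636) the libraries held 80.9, 44.0, 81.3 and 6.11% in HFD and 5.91, 43.9 and 46.3% in control sperm. Near Sox5, a transcription factor of cartilage and neuron development (chr4:178511480-178511571), they held 5.97, 58.1, 57.4 and 26.5% in ELS and 3.55, 34.3 and 65.0% in control sperm. The differences between the means, 21.04 points at Zadh2 and 2.73 points at Sox5, were smaller than the SD of either group, 35.9 points in HFD and 22.7 in control libraries at Zadh2 and 25.4 in ELS and 30.7 in control libraries at Sox5. A 7SK region singled out after its values were seen (chr7:36058648-36058746) held 72.9, 4.05 and 35.7% in ELS-HFD and 11.8, 9.26 and 9.21% in control sperm, the largest increase in that comparison, and its groups overlapped.

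Comparisons with no library in common were set side by side. ELS against control and ELS-HFD against HFD both measure separation, in different libraries, and 132 pairs of their distal intergenic regions overlapped (23.7% of the regions of ELS against control, 30.9% of those of ELS-HFD against HFD). The direction was the same in 82 pairs (62.1%), lower in both in 57 and higher in both in 25, against 69.8% of the pairs of all listed regions. HFD against control and ELS-HFD against ELS both measure diet, with 126 pairs and the same direction in 65 (51.6%, against 55.3%). In 3 pairs, all for separation and all in the same direction, the groups did not overlap in either table. That is 2.27% of the 132 pairs, against 3.46% of the 463 pairs of all listed regions, while for diet there were 0 of 126, against 2.13% of 376. Near Armc12 (chr20:8089807-8090269) methylation averaged 7.70 ± 1.40% in ELS and 12.4 ± 0.713% in control libraries, and 5.69 ± 1.1% in ELS-HFD and 10.1 ± 3.95% in HFD libraries. Methylation there was barely apart between ELS-HFD and HFD, with 6.48% in the highest ELS-HFD and 6.50 and 6.90% in the lowest HFD libraries. Near AABR07034923.1 it was 81.6 ± 3.00% in ELS and 89.5 ± 2.11% in control libraries, and 87.0 ± 5.29% in ELS-HFD and 93.8 ± 1.22% in HFD libraries, a second difference of -6.78 points that was -4.18 without ELS-HFD library 2. Near AABR07061530.1 it was higher, at 73.5 ± 3.16% in ELS and 65.9 ± 3.53% in control libraries, and 85.3 ± 3.95% in ELS-HFD and 79.1 ± 3.35% in HFD libraries, where the difference was 6.18 points and 3.92 without ELS-HFD library 1.

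All 14 libraries could be fitted together at 306 regions that overlap by at least 50% between these separation tables, of which 99 were distal intergenic. These regions entered because they were listed for a difference in both separation comparisons, so the separation term leans towards a difference. Its counts therefore cannot be ranked against those of the diet term, for which no such listing was required. The interaction term compares the listed separation differences with each other, so the listing bears on its counts as well. In this limma fit the separation term passed an adjusted p of 0.05 in 3 of the 99, against 4.58% of the 306, and all 3 were lower after separation. At an unadjusted p under 0.05 there were 32 of the 99 (32.3%), against 33.7% of the 306. They lay near AABR07034923.1 (adjusted p = 0.0372), AABR07050600.1 (adjusted p = 0.0487) and AABR07007717.1 (adjusted p = 0.0487). Near AABR07050600.1, over intervals that differ slightly between the tables, the means were 94.0 ± 0.686% in ELS-HFD, 92.1 ± 1.83% in ELS, 96.7 ± 0.301% in HFD and 95.1 ± 1.36% in control libraries. On the percent scale 0 of the 3 passed, with adjusted p-values between 0.0536 and 0.121, and leaving out single libraries gave between 0 and 5 passing regions. The interaction of separation and diet passed in 0 of the 99, with 15 at an unadjusted p under 0.05, against 12.7% of all 306. The diet term passed in 2 of the 99, near U6 (chr14:84830898-84831300) and Lrrc8d, against 0.98% of the 306, and 9 had an unadjusted p under 0.05, against 11.1%. The diet groups come from different tables whose intervals differ at both regions, so diet and interval cannot be told apart there. The intervals also differed at the 3 regions of the separation term. None of the 36 distal intergenic regions with identical intervals passed. These 36 hold none of the regions that passed in the full fit, so they do not test them.

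The nearest annotated start belonged to 1065 named genes, of which 907 had 1 locus. The 5 names with most loci were small RNA families with many copies in the genome: U6 with 31 loci, 7SK with 24, 5_8S_rRNA with 18, U1 with 10 and 5S_rRNA with 9. U6 and U1 are spliceosomal RNAs, and 5S and 5.8S are ribosomal RNAs. These families held 186 regions at 92 loci, and a name stands for a family whose copies cannot be told apart here. The U6 regions had a median level of 15.04% and the 5_8S_rRNA regions 80.01%. Near 5_8S_rRNA copies all 10 regions of HFD against control, at 7 loci, were higher in HFD, by 3.00 to 9.71 points. None of them was without overlap or called. In that comparison 245 of 424 distal intergenic and 893 of 1583 listed regions were higher in HFD. ELS-HFD against HFD uses the same HFD libraries, and 8 of its 11 regions near these copies were lower in ELS-HFD. The share was 71.3% in distal intergenic and 73.9% in all listed regions of that comparison. A U6 locus on chromosome 14, 300852 bp from its copy, held 20.2, 22.4, 19.2 and 26.0% in HFD and 16.3, 10 and 11.4% in control sperm (chr14:47675920-47675965). Its groups did not overlap there, nor in ELS-HFD against control, where an overlapping region held 25.2, 15.7 and 22.3% in ELS-HFD and 13.1, 9.39 and 9.03% in control sperm.

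The nearest genes were also counted in lists of developmental patterning factors, axon guidance and adhesion genes, and lipid and insulin genes. Patterning factors accounted for 58 distal intergenic regions at 35 loci and 22 genes (2.38%, against 2.52% of all listed), with 0 called (against 0.678% of all listed) and 9 without overlap (15.5%, against 27.3% of all listed and 22.8% of distal intergenic regions). Nkx1-1, a homeobox gene, had 4 loci and 11 regions, none without overlap. Near Gata3, a factor of T cell and kidney development (chr17:72410669-72410784), methylation averaged 5.63 ± 1.36% in ELS-HFD and 10.02 ± 0.53% in control libraries, without overlap and with a q-value of 1. Near Pou4f1, a factor of sensory neurons, it averaged 22.0 ± 5.01% in ELS and 15.03 ± 2.78% in control libraries. Against the same ELS libraries (22.0 ± 5.01%), ELS-HFD libraries averaged 14.9 ± 5.25%. Both differences were without overlap. These differences were 6.94 points, and 4.45 without ELS library 1, and -7.06 points, and -4.04 without ELS-HFD library 2 or -4.57 without ELS library 1. Axon guidance and adhesion genes had 19 regions at 11 loci (0.780%, against 1.05% of all listed), 0 called and 4 without overlap (21.1%, against the same 27.3%). Among them, the region near Sema3f, a secreted repellent of axons, averaged 19.1 ± 2.82% in HFD and 26.6 ± 3.12% in control libraries. Lipid and insulin genes had 7 regions at 2 loci (0.287%, against 0.421% of all listed), at Fads1, with the 1 call given above, and at Igf1r, the IGF-1 receptor gene, with 0 called and 0 without overlap. Clone-based names without a known role were nearest to 989 distal intergenic regions (40.6%, against 23.3% of all listed) and to 6 of the 12 called ones.

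Of the 25 regions nearest to a microRNA gene, 5 were without overlap (20%, against 22.8% of distal intergenic and 27.3% of all listed regions) and 0 were called (against 0.678% of all listed). Near Mir672 on the X chromosome (chrX:75071364-75071427, 24 CpGs) the libraries held 1.20, 2.78, 5.997 and 6.20% in ELS and 0.399, 0.636 and 0.219% in control sperm. Over a slightly longer interval they held 1.06, 1.17 and 1.03% in ELS-HFD and 1.45, 2.63, 4.23 and 5.95% in ELS sperm. ELS was the higher group in both comparisons, without overlap in either, at low levels throughout and with q-values of 0.146 and 1. Both comparisons rest on the same ELS libraries. Near Mir153 (chr6:145181540-145181769), a locus listed in 4 tables, the libraries held 51.3, 25.7 and 47.1% in ELS-HFD and 32.5, 31.1 and 8.46% in control sperm, so the groups overlapped. The difference was 17.3 points, and 9.56 without control library 3, and the HFD libraries of this locus spread between 6.82 and 61.8%. Mirlet7c2 was nearest to 4 loci. The one without overlap (chr7:126567249-126567299) averaged 98.2 ± 0.75% in ELS-HFD and 95.4 ± 0.16% in control libraries. The single Mirlet7i region averaged 11.3 ± 2.35% in ELS and 7.80 ± 1.597% in control libraries, with overlap. Mir129-1 had 2 loci, of which the larger difference was 41.9 ± 14.1% in HFD against 59.6 ± 22.0% in control libraries, with overlap and between -9.55 and -30.2 points when 1 library was left out. Near Mir6327 (chr10:69082504-69082706) the means were 72.1 ± 2.45% in ELS-HFD and 59.8 ± 6.53% in ELS libraries, without overlap. With the same ELS libraries they were 59.8 ± 6.53% in ELS and 73.6 ± 4.81% in control libraries, with overlap.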

How the data were processed

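RRBS methylation was measured in 14 sperm libraries. Per the labels' protocols, sperm DNA extraction used a Genomic Mini AX spin kit for swabs and semen, and library preparation a Zymo-Seq RRBS kit. Trim Galore, Bismark, Bowtie and the build Rnor_6.0 are named, without versions, per the submitters' processing notes. The series' design text speaks of amygdala RNA, but labels and tables are of sperm methylation and were followed.

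The authors deposited 5 tables in metilene format, per the file headers: methylation in percent per library and group, the difference (a score in percentage points, first code minus second), the count of CpGs per region, p-values and a q-value per region, and the annotated context, nearest gene and distance. Caller settings, coverage filters and the annotation tool are not given in the sources used here. Depth is unknown, since the deposited percent values come without read counts, so no counting interval is given. No label spells out the column codes, so groups were assigned from the code letters and from the number of columns per code. At regions with the same coordinates in 2 tables, non-zero values of a shared group were equal in the same column, within 1e-06 points, in 87.1 to 96.2% of cases. There were 0 library columns without a group.

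Group means and SDs were computed from the library columns, and their difference departs from the deposited one by up to 6.28 points (0.762 in called regions), never in sign. Differences were turned to the order used in the text. Coordinates are 1-based. limma 3.58.1 in R 4.3.3 was run over each whole table on log2((percent + 1) / (100 - percent + 1)) with Benjamini-Hochberg adjustment, after a test on simulated data. Listing itself selected for a difference, so these p-values and the counts without overlap lean towards a difference. Nothing says which libraries share a litter, so p-values measure the spread between these samples. Members, lists and rules were chosen with earlier results of these data known. The named regions are all called ones, the 5 largest increases and 5 largest decreases without overlap per comparison, up to 10 loci of 4 or 5 tables with the largest differences, and the 5 most frequent nearest genes, with a few of these left unnamed. Regions of the 19 loci listed in all tables, of the gene lists and near microRNA genes, and those without overlap in both of 2 tables, were named outside that rule after their values were seen. 1 called region and 1 locus listed in all tables are counted but not reported here. Rnf genes (4 genes, 8 regions) share the first letters by which small RNA names were found and are not described. The 2 x 2 fit's alternatives, and leaving out libraries at regions named outside the rule, were chosen after seeing the data.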

Additional observations from a re-analysis of the deposited data

Results flagged for a closer look

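In 44 groups of 4 libraries at the named regions, 3 had a highest or lowest library set far apart from the other three by Dixon's test at the 95% level, and chance alone gives about 1 in 20 such groups. At the U6 locus (chr14:47676045-47676092) in HFD against control, HFD library 2 held 27.7%, while the other HFD libraries held 13.3, 13.8 and 14.9% and the control libraries 10.9, 8.66 and 10.03%, and the difference was 7.56 points, and 4.14 without that library. At AABR07054752.1 (chr3:168590107-168590197) in ELS against control, ELS library 2 held 52.7%, while the other ELS libraries held 29.1, 28.9 and 31.8% and the control libraries 28.5, 23.9 and 25.03%, and the difference was 9.85 points, and 4.15 without that library. At AABR07061530.1 (chr4:131875946-131876181) in ELS-HFD against HFD, HFD library 1 held 74.1%, while the ELS-HFD libraries held 89.8, 82.6 and 83.5% and the other HFD libraries 81.0, 80.4 and 81.0%.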

How the results depend on the processing

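Counts of called regions moved with the settings. At a q-value under 0.01 there were 2 for ELS against control, 2 for ELS-HFD against control and 0 for ELS-HFD against HFD. Beyond 50000 bp from a start there were 1, 2 and, for ELS-HFD against ELS, 1. With at least 15 CpGs ELS against control had 1, and with differences of at least 10 points ELS-HFD against control had 2 and ELS-HFD against HFD 0. Beyond 50000 bp the number of loci was 552, and the share of lower regions was 34.2% for HFD against control and, on the other side of an even split, 46.5% for ELS against control. Among differences of at least 10 points that share was 53.1% for HFD against control, also on the other side, 72.2% for ELS against control, 78.7% for ELS-HFD against control and 81.6% for ELS-HFD against HFD. In the fit of all 14 libraries the separation term passed in 0 distal intergenic regions on the percent scale and in 0 to 5 when 1 library was left out. The diet term passed in 2 on every leave-one-out. With identical intervals both terms passed in 0 of 36. None of the regions that passed in the full fit had identical intervals, so that setting does not test them. Apart from the percent scale and the stricter q-value, these settings use fewer regions or samples by construction. Why the results moved was not tested for any setting. No paired analysis was possible, since the groups are different rats and no litter or pair is given that links their libraries. Depth is unknown, so a small difference cannot be set against counting error.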
